A study of Mus musculus with 19 samples.

Results

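The D segment of the T cell receptor beta (TRB) chain leaves a short stretch of residues in the middle of the CDR3 loop, and the reading frame in which it is joined decides which residues these are. CDR3s were selected that carried GQG or DRG, read from TRBD1 in its glutamine and arginine frames, or GLG or DWG, read from TRBD2 in its leucine and tryptophan frames. The motif had to lie in the core of a CDR3 of 10 to 14 characters, after the first 3 and before the last 4 characters. The 19 libraries held 1082330 different CDR3s, of which 985690 had such a length and 113207 of these (11.49%) carried at least 1 of the 4 motifs. A TRBD1 motif was present in 65899 CDR3s and a TRBD2 motif in 47942, and 634 CDR3s held both. DRG and GQG were the letters of 30935 and 35375 CDR3s, and GLG and DWG those of 22632 and 25372. The motifs are letters in a protein sequence: a match can also arise from V and J residues or from added nucleotides, and is no proof that the named D segment was used.

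In the TRB locus each D segment lies directly upstream of its own J cluster, in the order TRBD1, TRBJ1 cluster, TRBD2, TRBJ2 cluster. Recombination first joins a D to a J by deleting the DNA between them, then adds a V segment, and nucleotides are trimmed and added at both junctions. TRBD1 can therefore be joined to either J cluster, whereas TRBD2 lies downstream of all TRBJ1 segments and is normally joined to TRBJ2. Both D segments are rich in guanine, so that every frame encodes glycines, and a further frame, GTG, is read from both and was followed here as a comparison (47238 CDR3s).

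The libraries were made from CD4+ TCRβ+ T cells sorted from BALB/c mice at day 7, with 500000 cells for each lymph node library and 5000 for each heart library. Mediastinal nodes (Med-LN) came from 4 samples after sham surgery, a thoracotomy with no ligation, and from 3 samples after myocardial infarction (MI) by ligation of the left-anterior descending coronary artery, with buprenorphine given to operated mice for pain. Hearts were sampled in 3 libraries after MI, and there was no sham heart library to set them against. Axillary nodes (ax-LN) came from mice injected with Titermax Gold adjuvant alone (4 samples), with 100 µg porcine cardiac myosin in that adjuvant (2 samples) or with 1 mg of a mouse heart protein extract in it (3 samples). All mice had thus received surgery or adjuvant, none were untreated, the labels give no age, and the volume of adjuvant used for each antigen sample is not assigned. The protocol names a second node site (si-LN) beside the heart extract, while all these samples are labelled axillary. Nothing in the labels ties a library to 1 animal, and p-values therefore measure only the spread among these samples, which may be technical. Only TRB transcripts were amplified, and markers of other cell types could not be examined.

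The node libraries held 7534295 to 9235800 reads and the hearts 2426715 to 5126910. Shares below are either shares of distinct combinations, where each CDR3 and TRBJ segment pair listed in a library counts once, or shares of reads. Node libraries listed 35617 to 213585 combinations of 10 to 14 characters, of which 10.87 to 12.73% carried a motif, and hearts 2724 to 4423, of which 10.76 to 11.91% did. The 95% Wilson interval of a single node share extended at most 0.469 percentage points to either side for combinations, and that of a heart share 2.09 points. PCR reads without molecular identifiers are not independent molecules, so intervals and limits cover counting error only.

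The CDR3s that occurred in most node libraries show what the members look like. Each is written in lower case with the motif in capitals, without the opening cysteine and the closing phenylalanine, and the 3 most widespread are given for each motif (those listed in most of the 16 nodes, ties broken by mean share of reads).
GQG CDR3 1: asspGQGnerlf
GQG CDR3 2: asspGQGaetly
GQG CDR3 3: asspGQGderlf
DRG CDR3 1: assqDRGqdtqy
DRG CDR3 2: assqDRGntevf
DRG CDR3 3: assrDRGnerlf
GLG CDR3 1: asspGLGgaetly
GLG CDR3 2: assGLGgyeqy
GLG CDR3 3: asslGLGsaetly
DWG CDR3 1: assqDWGqdtqy
DWG CDR3 2: assqDWGgyeqy
DWG CDR3 3: assqDWGgqdtqy
All 6 CDR3s with a TRBD2 motif were most often listed with a TRBJ2 segment. Among the 6 with a TRBD1 motif, 4 were most often listed with TRBJ1-4 or TRBJ1-1 and the other two with TRBJ2-3 and TRBJ2-5. The 3 DWG examples share the stretch assqDWG and were most often listed with TRBV5.

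The TRBD2 motifs were nearly confined to CDR3s with a TRBJ2 segment, whereas the TRBD1 motifs were found with both clusters and more often with TRBJ1. Across the 16 node libraries, DWG was present in 0.155 to 0.266% of TRBJ1 combinations (median 0.229%) and in 4.28 to 4.69% of TRBJ2 combinations (median 4.44%). GLG was present in 0.246 to 0.434% of TRBJ1 combinations (median 0.329%) and in 2.87 to 3.80% of TRBJ2 combinations (median 3.49%). Every library was higher with TRBJ2 for both motifs, and the ranges lay far apart.

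GQG ran the other way, with 4.39 to 5.18% of TRBJ1 combinations (median 4.85%) and 2.65 to 3.14% of TRBJ2 combinations (median 2.88%). DRG was present in 3.29 to 4.13% of TRBJ1 combinations (median 3.78%) and in 2.80 to 3.08% of TRBJ2 combinations (median 2.94%). The 2 TRBD1 ranges did not overlap between the clusters either, but the gap was much narrower than for the TRBD2 motifs. GTG, the frame common to both D segments, was present in 4.20 to 5.35% of TRBJ1 and 4.79 to 5.32% of TRBJ2 combinations, and these ranges overlapped.

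**Figure D1:**
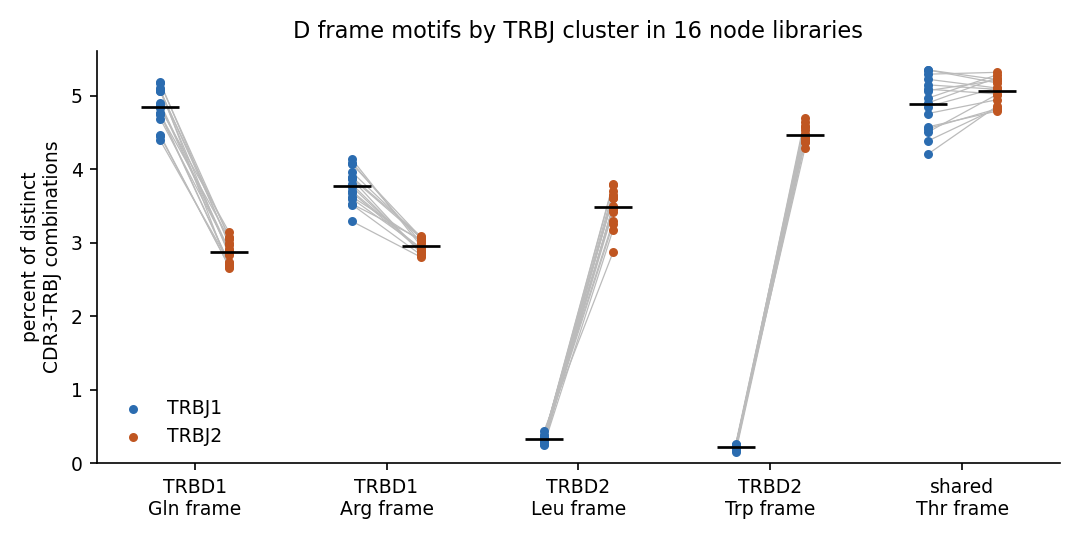
Percent of distinct CDR3-TRBJ combinations of 10 to 14 characters that carried each D frame motif, in each of 16 node libraries, with TRBJ1 (blue) and TRBJ2 (orange). Grey lines join the 2 values of a library and black bars are means; the TRBD2 frames sit below 0.44% with TRBJ1 and above 2.8% with TRBJ2, the TRBD1 frames are higher with TRBJ1, and the shared frame overlaps.

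Counting both motifs of a D segment together, TRBD2 motifs were present in 0.541% ± 0.0567 (SD, n = 16) of TRBJ1 combinations and in 7.94% ± 0.279 of TRBJ2 combinations, a difference of 7.40 percentage points. TRBD1 motifs were present in 8.56% ± 0.464 of TRBJ1 and 5.80% ± 0.215 of TRBJ2 combinations, a difference of -2.755 points. Both differences had the same direction in 16 of 16 libraries, and each had a two-sided p of 3.05e-05 in an exact permutation test over all 65536 sign patterns, the smallest this test can give, which was also the value after Benjamini-Hochberg adjustment over the 2 differences. Of all node combinations 38% used TRBJ1, compared with 47.6% of those with a TRBD1 motif and 4.05% of those with a TRBD2 motif. DWG had 3.0% ± 0.441 (SD, n = 16) of its combinations in TRBJ1 and GLG 5.60% ± 1.32. This order rested on TRBJ1-3, without which the shares were 2.39% ± 0.401 for DWG and 2.20% ± 0.582 for GLG.

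The same comparison was fitted across all 4996 tripeptides of the CDR3 cores that were frequent enough to test, with edgeR's quasi-likelihood test, Benjamini-Hochberg adjustment and the library as a block. Relative to TRBJ1, DWG was 20-fold more frequent with TRBJ2 (log2 fold change 4.32, SE 0.0389) and GLG 10.8-fold (3.43, SE 0.0374). Both adjusted p-values were written as 0 by the software, being smaller than it can hold. GQG was 1.68-fold lower with TRBJ2 (log2 fold change -0.75, SE 0.0257, edgeR adjusted p = 1.8e-185) and DRG 1.28-fold lower (-0.36, SE 0.0263, edgeR adjusted p = 1e-41). GTG did not pass (0.047, SE 0.0245, edgeR adjusted p = 0.089). Thus 2 motifs were called higher with TRBJ2 where 24.8% of all tripeptides were (1237 of 4996), and 2 were called higher with TRBJ1 where 30.7% were (1536), and in either direction 55.5% of tripeptides were called. By size DWG stood at rank 152 and GLG at rank 258 from the top of 4996 tripeptides. The median of all tripeptides was -0.18. With TMM scaling that median moved to 0.061, the split of calls turned to 1499 higher and 1120 lower with TRBJ2, and the fold changes of DRG and GQG were -0.11 and -0.50, both still called. With DESeq2 the calls were 1329 and 1082.

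The tripeptides named from either end of this order lay next to the last 4 characters, which come from the J segment. The 3 with the largest excess with TRBJ2 were FNQ (log2 fold change 9.36), GNQ (9.01) and VNQ (8.82). Each lay directly before the last 4 characters in 99.8% of its combinations, and 89.1 to 99.3% of their combinations used TRBJ2-5. The 3 with the largest excess with TRBJ1 were ISN (-7.85), NSG (-7.30) and FSN (-6.71), which lay there in 98.1 to 99.1% of combinations and were found mainly with TRBJ1-4 or TRBJ1-3. DWG and GLG were directly before the last 4 characters in 13.8 and 12.9% of combinations only.

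**Figure D2:**
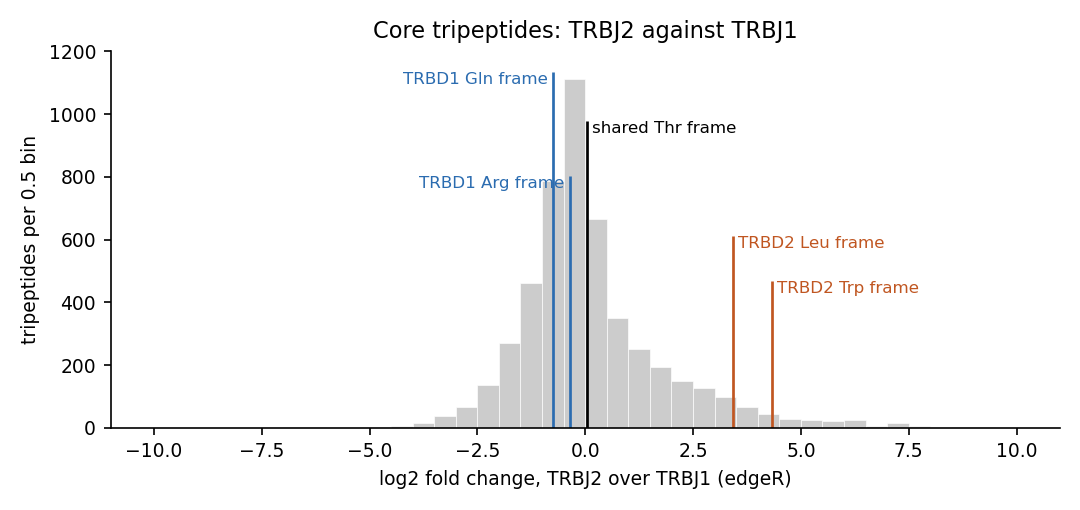
Number of core tripeptides by log2 fold change of TRBJ2 over TRBJ1 in the edgeR fit over 16 nodes (grey bars, bins of 0.5), with the D frame motifs as vertical lines whose heights only separate the labels. The 2 TRBD2 frames stand at 3.43 and 4.32 in the right tail, the TRBD1 frames at -0.75 and -0.36 near the centre.

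Along the locus the TRBD2 motifs were rare up to the end of the TRBJ1 cluster and frequent after it. With TRBJ1-1, TRBJ1-2, TRBJ1-4 and TRBJ1-5 they made up 0.288 to 0.406% of combinations, and with TRBJ1-3 1.31% ± 0.263 (SD, n = 16). With TRBJ2 segments they made up between 4.57% ± 0.505 for TRBJ2-2 and 9.98% ± 0.354 for TRBJ2-7. With TRBJ2-7, DWG stood directly before the last 4 characters in 4343 of 12705 combinations (34.2%), and GLG in 1795 of 9995. With the other TRBJ2 segments it was there in 0.217 to 9.78% for DWG and 0.393 to 8.32% for GLG. Whether TRBJ2-7 stays highest without such matches was not tested. TRBD1 motifs were most frequent with TRBJ1-4, at 10.2% ± 0.634, and lay at 7.51 to 8.03% with the other TRBJ1 segments. With TRBJ2 segments they lay between 5.0% ± 0.437 for TRBJ2-4 and 6.28% ± 0.377 for TRBJ2-7.

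TRBJ2-2 was the TRBJ2 segment in which TRBD1 motifs were more frequent than TRBD2 motifs. The share of TRBD2 among combinations with any of the 4 motifs was 44.5% ± 3.27 (SD, n = 16) there, and 35.5 to 50.8% over the libraries. It was 55.5% ± 2.05 with TRBJ2-3, 56.8% ± 2.04 with TRBJ2-5, 59.2% ± 1.63 with TRBJ2-1, 61.2% ± 2.14 with TRBJ2-4 and 61.6% ± 1.23 with TRBJ2-7. TRBJ2-3 and TRBJ2-5 lay within each other's spread, as did TRBJ2-4 and TRBJ2-7. Over the libraries the highest value of TRBJ2-2 was below the lowest of each other TRBJ2 segment. Over TRBJ2 as a whole the share was 57.95% ± 0.736, with a range of 56.76 to 59.31%.

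**Figure D3:**
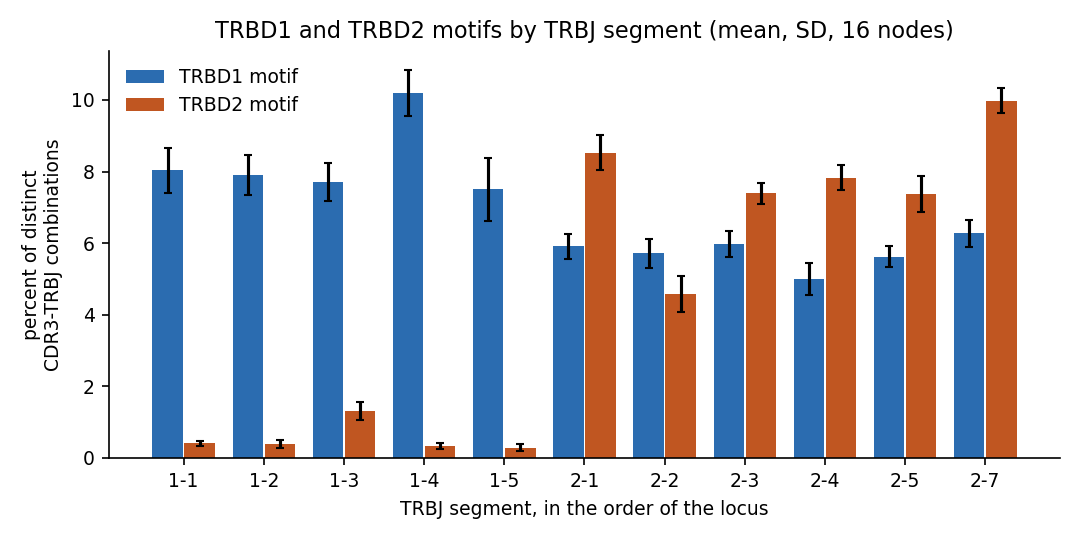
Mean percent of distinct CDR3-TRBJ combinations with a TRBD1 (blue) or TRBD2 (orange) motif for each of 11 TRBJ segments in the order of the locus; error bars are the SD over 16 node libraries. TRBD2 motifs lie between 0.288 and 1.31% for TRBJ1 segments and between 4.57 and 9.98% for TRBJ2 segments.

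The excess with TRBJ1-3 was made of GLG. This motif was present in 1242 of 114279 TRBJ1-3 combinations, and in 1156 of these (93.1%) it stood directly before the last 4 characters, where this J segment supplies a glycine. With the other TRBJ1 segments GLG was present in 0.0961 to 0.170% of combinations. Away from that place GLG was left in 86 TRBJ1-3 combinations, 0.0753% of the total, and in 0.0556 to 0.0933% of combinations with the other TRBJ1 segments, so that TRBJ1-3 then lay among them. DWG showed no such excess, at 0.243% ± 0.0806 (SD, n = 16) with TRBJ1-3 and 0.192 to 0.236% with the other TRBJ1 segments. Without TRBJ1-3 the log2 fold change of GLG between the clusters was 4.55 and that of GTG 0.10 (edgeR adjusted p = 0.000169).

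The few DWG combinations with TRBJ1 differed in the place and the neighbours of the motif from those with TRBJ2. With TRBJ1 the motif began at the fourth and the fifth character of the CDR3 in 34.9% ± 7.24 and 63.3% ± 7.39 (SD, n = 16) of combinations and at the sixth in 1.17% ± 1.35. With TRBJ2 it began at the sixth in 20.4% ± 1.87. Glutamine preceded DWG in 44.2% ± 7.16 of TRBJ1 and 12.0% ± 1.86 of TRBJ2 combinations. TRBV5 accounted for 33.6% of DWG entries with TRBJ1, against 11.8% of all entries with TRBJ1, and for 18.2% against 13.9% with TRBJ2.

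The residue that followed the motif differed between the frames. Glycine followed GLG in 39.5% ± 1.24 (SD, n = 16) of TRBJ2 combinations and DWG in 30.0% ± 1.39. In contrast, glycine followed GQG in 9.85% ± 1.27 and DRG in 11.6% ± 1.05 of TRBJ2 combinations, while alanine followed GQG in 20.1% ± 1.22 and arginine followed DRG in 12.1% ± 0.813. After the shared motif GTG glycine was the most frequent residue, in 24.2% ± 1.40 of TRBJ1 combinations (22.0 to 27.9%) and in 41.1% ± 1.13 of TRBJ2 combinations (38.5 to 42.7%). GTG thus had similar shares with the 2 clusters but was followed by glycine more often with TRBJ2 in every library, with ranges that did not overlap. GTG ended the core, with no residue after it there, in 12.2% ± 0.825 of TRBJ1 and 8.44% ± 0.733 of TRBJ2 combinations. The neighbours played no part in the selection, and the difference in glycine after GTG was not tested. Glycine after tripeptides other than these motifs was not examined.

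Before the motif, proline was the most frequent residue for GQG (24.4% ± 1.20 with TRBJ2) and GLG (21.1% ± 1.35), and arginine for DWG (23.1% ± 1.27). For DRG, arginine stood before the motif in 24.5% ± 0.969 of TRBJ2 combinations, beside 25.4% ± 1.94 in which the motif opened the core. With TRBJ2 the motif began most often at the fifth character of the CDR3, for all 4 motifs, from 42.8% of combinations for DRG to 54.5% for DWG. With TRBJ1 GLG began most often at the sixth character (34% ± 9.88).

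Longer CDR3s carried the motifs more often. From 10 to 14 characters, TRBD2 motifs with TRBJ2 went from 1.04% ± 0.156 to 16.3% ± 0.861 (SD, n = 16) of combinations, and TRBD1 motifs with TRBJ1 from 1.43% ± 0.312 to 17.7% ± 1.89. TRBD1 motifs with TRBJ2 went from 2.04% ± 0.266 to 7.68% ± 0.579 only. At 10 characters TRBD1 motifs were therefore more frequent with TRBJ2 than with TRBJ1, at 11 characters they were at 4.17% ± 0.308 with TRBJ1 and 4.04% ± 0.295 with TRBJ2, and from 12 characters on they were more frequent with TRBJ1. TRBD2 motifs with TRBJ1 stayed between 0.126% ± 0.0641 and 1.01% ± 0.195. In TRBJ2, TRBD1 motifs were the more frequent ones at 10 and 11 characters and TRBD2 motifs at 12 characters and above. A longer core also offers more places for any tripeptide, since it has 3 characters in a CDR3 of 10 and 7 in a CDR3 of 14.

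**Figure D4:**
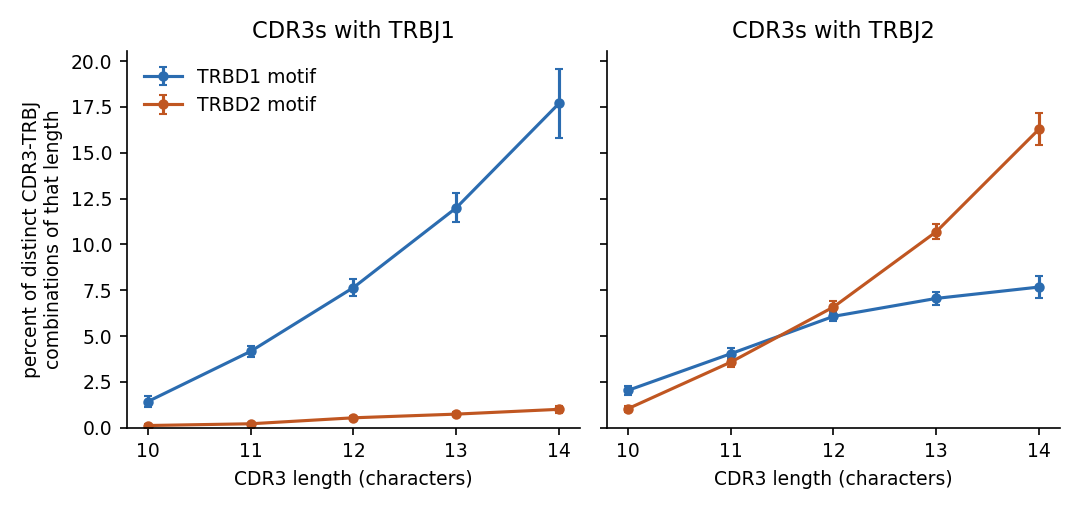
Mean percent of distinct CDR3-TRBJ combinations with a TRBD1 (blue) or TRBD2 (orange) motif by CDR3 length, with TRBJ1 (left) and TRBJ2 (right); error bars are the SD over 16 node libraries. With TRBJ2 the 2 lines cross between 11 and 12 characters and end at 7.68 and 16.3%.

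How often and where the motifs occurred differed between TRBV segments, which was not tested. Among the 15 TRBV segments with at least 1% of entries, GQG ranged from 1.74% ± 0.385 (SD, n = 16) with TRBV15 to 4.91% ± 0.211 with TRBV13-1. DRG ranged from 2.26% ± 0.331 with TRBV31 to 4.60% ± 0.278 with TRBV13-3. Within TRBJ2, GLG ranged from 1.75% ± 0.270 with TRBV20 to 4.82% ± 0.315 with TRBV13-1, and DWG from 2.49% ± 0.862 with TRBV29 to 6.44% ± 0.888 with TRBV3. These segments were picked for their lowest and highest mean shares, so the distance between them is no test. CDR3 length was not held fixed, nor the TRBJ cluster for GQG and DRG. The motifs opened the core more often in the TRBV13 family than with other TRBV segments, in 43.6% ± 2.17 against 20.4% ± 1.56 of DRG entries and in 43.2% ± 3.79 against 14.8% ± 1.24 of DWG entries. In this family the fourth character of the CDR3 was aspartate in 37.0% ± 0.644 of all entries, against 4.14% ± 0.162 with other TRBV segments (in these files the core opens at that character). Whether the aspartate of such a motif came from the V or the D segment was not tested. With motifs that open the core left out, the log2 fold changes between the clusters of all 4 motifs kept their direction and passed the edgeR threshold.

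Combinations shared by many nodes carried DWG with TRBJ2 and the TRBD1 motifs with TRBJ1 more often than those of a single node. Of 464069 TRBJ2 combinations listed in a single node 7.17% had a TRBD2 motif, and of the 183 listed in all 16 nodes 33 did (18%), 31 of them with DWG and 2 with GLG. DWG with TRBJ2 went from 3.81% in a single node to 6.28% in 8 to 15 nodes and 16.9% in all 16, while GLG went from 3.37 to 3.69 and 1.09%, the last from 2 combinations. Of 284367 TRBJ1 combinations in a single node 8.09% had a TRBD1 motif, and of 121 in all 16 nodes 18 did (14.9%). TRBD1 motifs with TRBJ2 were at 5.61% in a single node and 7.10% in all 16, and of these GQG was at 2.93 and 2.19%. TRBD2 motifs with TRBJ1 went the other way, from 0.652% of single-node combinations to 0.616% in 2 to 3 nodes, 0.392% in 4 to 7 (83 of 21158) and 0.285% in 8 to 15 (20 of 7006). Of the 121 in all 16 nodes 0 had one, which allows a share of up to 2.48%. Up to 4 to 7 nodes the fall with TRBJ1 was that of GLG, from 0.424% in a single node to 0.374 and 0.156%. DWG with TRBJ1 was at 0.232, 0.242 and 0.236% over the same steps. In 8 to 15 nodes GLG was at 0.128% (9 combinations) and DWG at 0.157% (11 combinations). These differences were not tested. Combinations shared by many libraries are few, and libraries with more combinations contribute more of them.

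Abundant combinations showed the same lean toward DWG. Among TRBJ2 combinations of 2 to 9 reads DWG was present in 3.98% ± 0.294 (SD, n = 16), and among those of 1000 reads or more in 9.97% ± 5.12. Its share of the abundant combinations was 4.57% in adjuvant node 3, the lowest, and 20.5 and 21.5% in MI nodes 2 and 1, the highest. These MI nodes had 83 and 65 combinations that abundant among 213585 and 185470 of all kinds, compared with 788 among 42180 in adjuvant node 3, and the part of this difference in makeup was not tested. GLG went the other way, from 3.19% ± 0.442 to 2.18% ± 0.711, and TRBD1 motifs in TRBJ2 were at 5.32% ± 0.490 and 4.82% ± 1.41. The 370 abundant DWG combinations with TRBJ2 comprised 201 CDR3s, of which 33 were abundant in at least 2 nodes. TRBV5 made up 51.9% of their entries of that abundance, against 14.5% of all such TRBJ2 entries.

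The most widespread DWG CDR3, assqDWGqdtqy, was listed in 16 of 16 nodes with 739 reads in heart extract node 3, the lowest, to 4456 in sham node 4, the highest, and a mean of 0.0279% ± 0.00932 of node reads (SD, n = 16). It was listed in no heart; a count of 0 in heart 1, the heart of fewest reads, allows a share of up to 0.000124% of its reads. The second, assqDWGgyeqy, had 217 reads in adjuvant node 1 to 2230 in adjuvant node 2, and 15869 reads in heart 1 (0.654% of its reads, 95% Wilson interval 0.644 to 0.664%). The third, assqDWGgqdtqy, had 521 to 2415 reads in the nodes and 2653 in heart 3. Among the widespread TRBD1 CDR3s, asspGQGderlf had 2 reads in myosin node 1 and 5477 in sham node 4, a wider span than any of the 3 DWG CDR3s. The widespread assqDRGqdtqy, at 499 to 2507 reads in the nodes, had 9063 in heart 1 and 0 in hearts 2 and 3. The GLG examples were rarer, with asspGLGgaetly at 21 to 868 reads over the 16 nodes.

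The first comparison between groups asked whether infarction changed the motifs in the draining node. TRBD1 motifs took 7.17, 7.17 and 7.02% of reads in CDR3s of 10 to 14 characters in MI nodes 1 to 3 and 7.08, 7.17, 7.07 and 6.44% in sham nodes 1 to 4. TRBD2 motifs took 5.23, 5.065 and 4.68% in the MI nodes and 4.93, 5.31, 5.0 and 5.31% in the sham nodes. The groups overlapped for both. The differences in mean were 0.176 percentage points (exact permutation p = 0.571, adjusted p = 0.571 over 3 measures) and -0.149 points (exact permutation p = 0.457, adjusted 0.571), and the share of TRBD2 among motif combinations with TRBJ2 differed by -0.476 points (exact permutation p = 0.571); the smallest p this design allows is 0.0571. In the edgeR fit the largest of the 5 motif changes was -0.08 for GLG (SE 0.0821, edgeR adjusted p = 1), no motif passed, and 0 of 6476 tripeptides did (0.0%), with 225 at an unadjusted p under 0.05 and 28 called by DESeq2.

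The axillary nodes asked the same of immunization with cardiac antigens. TRBD1 motifs took 7.11, 6.92, 6.63 and 7.13% of reads in adjuvant nodes 1 to 4, 7.16 and 6.65% in the myosin nodes, and 6.71, 7.49 and 7.23% in the heart extract nodes. TRBD2 motifs took 4.57, 4.87, 4.49 and 5.02% in the adjuvant nodes, 4.88 and 4.85% in the myosin nodes, and 4.94, 4.665 and 4.98% in the heart extract nodes. All 3 groups overlapped. The 5 antigen nodes together exceeded the adjuvant nodes by 0.101 points for TRBD1 (exact permutation p = 0.635, adjusted 0.683) and by 0.126 points for TRBD2 (exact permutation p = 0.349, adjusted 0.683), with 0.0159 the smallest p possible. For heart extract alone the differences were 0.196 points (exact permutation p = 0.457) and 0.126 points (p = 0.4, exact), with adjusted p = 0.686 for both. For myosin alone they were -0.0414 points (exact permutation p = 0.933) and 0.126 points (p = 0.667, exact), with adjusted p = 0.933 for both and a smallest possible p of 0.133.

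No motif passed the edgeR threshold in these 3 comparisons, which share the adjuvant nodes. The largest motif change was 0.05 for DWG with both antigens (edgeR adjusted p = 0.83), 0.07 for DWG with heart extract (edgeR adjusted p = 0.68) and 0.065 for GLG with myosin (edgeR adjusted p = 1). Of 6476 tripeptides, 1 was called with both antigens (0.0154%), IHI, which was lower, is no D motif and was named after its value was seen, with 704 at an unadjusted p under 0.05; this call was lost on leaving out any of these libraries other than heart extract node 2, and DESeq2 called 330. For heart extract and for myosin 0 were called (0.0%), where DESeq2 called 395 and 183 and edgeR had 758 and 330 below 0.05 before adjustment; leaving out heart extract node 2 gave 9 edgeR calls for heart extract and leaving out adjuvant node 2 gave 1.

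Sham nodes and adjuvant nodes differ in node site and in treatment, which cannot be told apart. TRBD2 motifs took 5.14% ± 0.200 (SD, n = 4) of reads in the sham and 4.74% ± 0.249 (n = 4) in the adjuvant nodes, a difference of 0.401 points (exact permutation p = 0.0857, adjusted 0.257, smallest possible 0.0286). TRBD1 motifs differed by -0.00741 points (p = 1, exact permutation). GLG was the motif with the largest change, 0.19 on the log2 scale (SE 0.076, edgeR adjusted p = 0.47), and 0 of 6476 tripeptides passed (0.0%), with 619 at an unadjusted p under 0.05 and 146 called by DESeq2. Counted by distinct combinations in place of reads, GLG was 0.21 higher in the sham nodes with an edgeR adjusted p of 0.00874, and 15 tripeptides were called. By combinations TRBD2 motifs were at 5.204 to 5.43% in the sham and 4.569 to 5.035% in the adjuvant nodes. TRBD1 motifs were at 6.717 to 7.116% and 6.37 to 6.819%. Sham nodes listed 49101 to 195949 combinations and adjuvant nodes 42180 to 86165, and the part of this in these values was not tested.

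**Figure D5:**
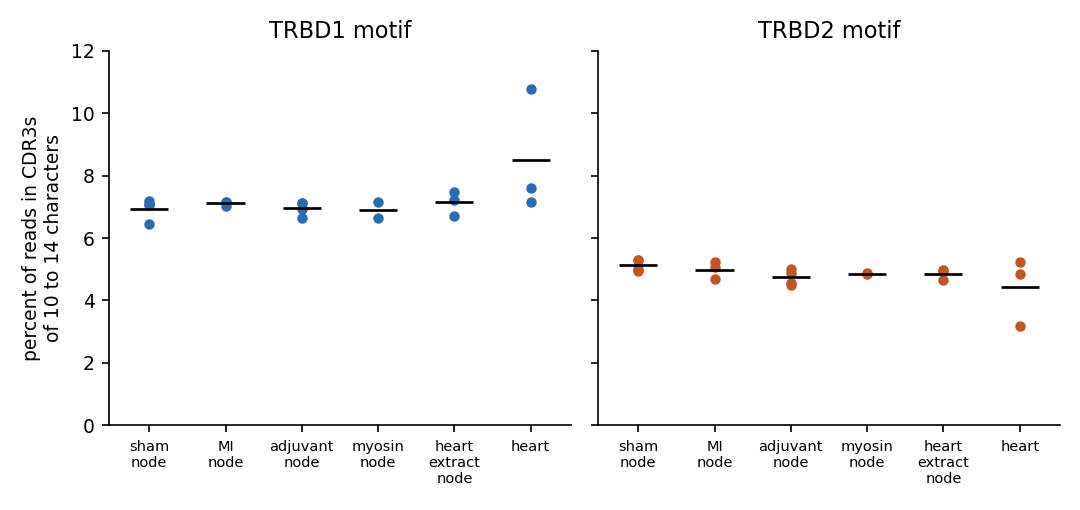
Percent of reads in CDR3s of 10 to 14 characters with a TRBD1 (left) or TRBD2 (right) motif, a point for each of 19 libraries by group, with the group mean as a bar. By reads the node groups overlap, and heart 2 stands at 10.76% for TRBD1 and 3.175% for TRBD2.

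The hearts after MI spread more widely than the nodes. TRBD1 motifs took 7.59, 10.76 and 7.16% of reads in hearts 1 to 3 and TRBD2 motifs 5.24, 3.175 and 4.85%. Against the MI nodes the differences were 1.39 points for TRBD1 (exact permutation p = 0.3, adjusted 0.6) and -0.567 points for TRBD2 (exact permutation p = 0.7, adjusted 0.7), where 0.1 is the smallest p possible. TRBD2 motifs made up 74.44, 54.66 and 62.57% of motif combinations with TRBJ2 in the hearts and 56.96 to 58.10% in the MI nodes, a difference of 6.22 points (exact permutation p = 0.4, adjusted 0.6). DWG took 1.95, 1.32 and 1.94% of reads in the hearts and 3.19, 2.99 and 2.80% in the MI nodes. It was not called (log2 fold change -0.78, SE 0.481, edgeR adjusted p = 0.2), in a comparison where 68.1% of tripeptides were called lower (3539 of 5198, median of all -7.63) and 1 higher (0.0192%), LET, which was named after its value was seen. GQG (0.39, SE 0.423), DRG (0.065, SE 0.422) and GLG (0.43, SE 0.496) were not called either, with edgeR adjusted p from 0.47 to 0.91.

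These heart values depend on the scaling and on single libraries. With TMM scaling edgeR called GQG (2.33), DRG (1.925), GLG (2.22) and GTG (1.68) higher in hearts, with adjusted p from 0.0208 to 0.0384, and DWG turned to 1.03. DESeq2 called all 5 at 3.79 to 5.04 and split its calls into 483 higher and 2318 lower. Without MI node 1, MI node 2 or MI node 3 the count of called tripeptides went from 3540 to 0.

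In the hearts few CDR3s made up most motif reads. The 5 most abundant accounted for 50.1 to 69.0% of TRBD1 and 50.7 to 68.7% of TRBD2 motif reads in each heart. Whether this differs from other heart CDR3s or from the nodes was not examined. The leading motif CDR3 of each heart was in no other heart.
Heart 1: assipGLGeyaeqf
Heart 2: asspGQGtsnerlf
Heart 3: assrGQGaaetly
The first had 39441 reads, 1.63% of its library (95% Wilson interval 1.61 to 1.64%), and was otherwise listed only in MI node 2, with 2 reads. The second had 145259 reads, 3.30% (3.28 to 3.32%), and 1086 reads in MI node 2. The third had 56504 reads, 1.10% (1.09 to 1.11%), and 202 reads in sham node 2, 24 in MI node 3 and 8 in heart extract node 1. In no node did any of the 3 exceed 0.0128% of reads. Heart libraries came from 5000 cells and node libraries from 500000.

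In the hearts, too, TRBD2 motifs were mostly found with TRBJ2. TRBD2 motifs with TRBJ1 were listed in 12 heart combinations holding 92 of 4962443 TRBJ1 reads, with at most 39 reads in any of them. Hearts 1 to 3 had 3, 4 and 85 such reads, 0.000354% (95% Wilson interval 0.00012 to 0.00104%), 0.000215% (8.36e-05 to 0.000553%) and 0.00377% of TRBJ1 reads, against 0.281 to 0.673% in the nodes. By combinations they made up 0.107, 0.138 and 0.478% of TRBJ1 in hearts 1 to 3, against 0.409 to 0.619% in the nodes, with heart 3 inside the node range, and 7.49, 7.15 and 9.01% of TRBJ2 combinations in the hearts. None of the 443 heart TRBJ1 combinations of 1000 reads or more had a TRBD2 motif, which allows a share of up to 0.677%, while 48 (10.8%) had a TRBD1 motif. With TRBJ2, 64 of 776 heart combinations of that abundance (8.25%) had a TRBD2 motif and 51 (6.57%) a TRBD1 motif. GQG took 8.65, 13.1 and 5.75% of TRBJ1 reads in hearts 1 to 3 and 0.722, 2.34 and 3.37% of TRBJ2 reads, so that all 3 hearts were higher with TRBJ1. DRG had no such common direction. It was present in 5.35, 2.49 and 2.45% of TRBJ1 combinations and in 2.01, 3.13 and 3.03% of TRBJ2 combinations in hearts 1 to 3, higher with TRBJ1 in heart 1 only. By reads it took 7.59, 5.48 and 2.18% with TRBJ1 and 1.88, 2.14 and 3.11% with TRBJ2, higher with TRBJ1 in hearts 1 and 2.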

How the data were processed

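T cell receptor beta transcripts were amplified by arm-PCR at iRepertoire and sequenced on an Illumina HiSeq, per the labels' protocols, which mention no molecular identifiers. The deposited tables give read counts per CDR3, TRBV and TRBJ, with a lowest count of 2, and their CDR3s lack the opening cysteine and closing phenylalanine. The aligner and the segment reference were not given in the sources used here. All 19 libraries were used, as labelled.

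CDR3s of 10 to 14 characters were kept, and motifs were searched after the first 3 and before the last 4 characters. The motifs, lists and tests were chosen with earlier results of these data known. The order of the D and J segments came from a RefSeq gene table (GRCm38.p6). Named were the 4 motifs and GTG, the 3 tripeptides with the largest change in each direction between TRBJ clusters, for each motif the 3 CDR3s in most nodes (ties by mean share of reads), the leading motif CDR3 of each heart, all TRBJ segments, and the TRBV segments of highest and lowest share among those with at least 1% of entries.

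All core tripeptides with at least 20 counts in total and present in at least 3 columns were fitted. The fits used edgeR 4.0.16 (R 4.3.3, quasi-likelihood, robust, library totals as the scale). TRBJ2 was compared with TRBJ1 on distinct combinations with the library as a block. Groups were compared on reads, with the 5 node groups in a single model and the hearts with only the MI nodes in another. Adjusted p-values (Benjamini-Hochberg) below 0.05 were called. Shares were compared by exact two-sided permutation tests over libraries and adjusted within each comparison. On simulated counts with 200 changed tripeptides the fit recovered 53% of 2-fold and 91.5% of 8-fold changes between TRBJ clusters, 2.5 and 24.5% between MI and sham nodes, 6 and 26% between antigen and adjuvant nodes, and 0 and 0% between hearts and MI nodes. Of the calls made there, unchanged tripeptides were 0.935 and 2.66% between clusters, 0 and 7.55% between MI and sham nodes, and 36.8 and 10.3% between antigen and adjuvant nodes, so that calls in the last comparison are less certain than the threshold states. The simulated hearts and MI nodes were drawn from the same means apart from the changed tripeptides. In the real fit the median log2 fold change of all tripeptides was -7.63, so the recovery of 0% does not describe that comparison. Alternatives were TMM scaling, DESeq2 1.42.0, other filters, other counting units, single CDR3 length, no TRBJ1-3, a replicate block and each library left out. Python 3.11.15, pandas 2.3.3, scipy 1.17.1 and statsmodels 0.14.6 were used.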

Additional observations from a re-analysis of the deposited data

Results flagged for a closer look

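In groups of 4 libraries, 5 of 42 sets of values held a library that stood apart from the others by Dixon's criterion, where chance marks about 1 in 20. The sets are not independent of each other, since a TRBD1 motif is GQG or DRG. Sham node 4 was low in 3 of them. This library listed 49101 combinations of 10 to 14 characters, against 99773 to 195949 in the other sham nodes. TRBD1 motifs took 6.441% of its reads, against 7.072 to 7.172% in the other sham nodes. DRG took 2.926% of its reads, against 3.297 to 3.349%, and GTG was present in 4.203% of its TRBJ1 combinations, against 5.147 to 5.292%. Sham node 1 was low for GQG, present in 4.831% of its TRBJ1 combinations against 5.060 to 5.098% in the other sham nodes. Adjuvant node 3 was low for DRG, which took 3.028% of its reads against 3.223 to 3.245% in the other adjuvant nodes. It listed 42180 combinations, against 49935 to 86165 in those nodes. The part of the number of combinations in these flags was not tested.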

How the results depend on the processing

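The differences of GQG, DRG, GLG and DWG between TRBJ clusters kept their direction and stayed called under all alternatives run (GQG -0.81 to -0.50, DRG -0.44 to -0.11, GLG 2.97 to 4.55, DWG 4.24 to 4.71). The number of tripeptides called between clusters was 1817 by reads and 1744 at 12 characters only. GTG was called with TMM (0.30), DESeq2 (0.27) and without TRBJ1-3 (0.10), and was -0.023 for combinations of at least 10 reads and -0.0047 away from the first core position. Between groups DESeq2 called 28 tripeptides for MI, 330 for both antigens, 395 for heart extract, 183 for myosin and 146 for sham against adjuvant nodes. With distinct combinations 15 were called for sham against adjuvant nodes and 180 for hearts, GLG was 0.21 in the former, and GQG and DRG were -0.068 and -0.23 in hearts. Heart extract gave 1 call for combinations of at least 10 reads. In hearts, TMM gave GQG 2.33, DRG 1.925, GLG 2.22, DWG 1.03 and GTG 1.68, and DESeq2 5.04, 4.66, 4.99, 3.79 and 4.41. The cause was not tested. Uncalled motif changes between node groups turned sign in 56 of 335 alternative values.

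With combinations and reads exchanged, share differences turned for TRBD1 in hearts (-0.670), myosin (0.207) and sham against adjuvant nodes (0.355), and for the TRBD2 percent within TRBJ2 in MI (0.175), both antigens (-0.0372), heart extract (-0.448) and sham against adjuvant nodes (-1.15). At 10 reads or more that percent turned for both antigens (-0.0927), heart extract (-0.139) and myosin (-0.0225), and away from the first core position for sham against adjuvant nodes (-0.0107). Without the 100 most abundant CDR3s, an alternative chosen after seeing the data, the TRBD2 difference of hearts was 0.40.

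With single libraries left out, calls ranged from 0 to 1 for both antigens, 0 to 9 for heart extract and 0 to 3593 for hearts, and DRG in hearts from -0.055 to 0.22. TRBD2 differences ranged from -0.269 to 0.00743 for MI and -0.977 to 0.0574 for hearts. TRBD1 differences ranged from -0.00918 to 0.201 for both antigens, -0.299 to 0.216 for myosin and -0.114 to 0.159 for sham against adjuvant nodes. The TRBD2 percent ranged from -0.0128 to 0.538 for both antigens, -0.153 to 0.95 for heart extract, -0.287 to 0.540 for myosin and -0.0640 to 0.577 for sham against adjuvant nodes. No share difference between groups had an adjusted p below 0.05 in any of these. For most comparisons the exact permutation test could not go that low. With all libraries its smallest p was 0.0571 for MI and heart extract, 0.1 for hearts and 0.133 for myosin. Sham against adjuvant nodes became 4 against 3 libraries, where the smallest p is also 0.0571. Only for both antigens could a value below 0.05 have occurred.

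The labels number the libraries, but no same-numbered pair correlated above 0.1 (-0.0427 to 0.0406 over tripeptides). Over CDR3s, same-numbered heart and MI node pairs were at 0.0131 to 0.0229 and differently numbered ones at -0.0172 to -0.00139. With the replicate block the largest motif change was 0.0459 for MI, calls for both antigens went from 1 to 0, and hearts had 2594 calls. Without the library block 2839 tripeptides were called between clusters.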
